A study of Homo sapiens with 6 samples.

Results

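The genes described here are 43 components of the human DNA replication machinery (licensing, helicase, polymerase, clamp, single-strand binding, nucleotide supply, fork and chromatin assembly), chosen by gene name. All 43 were among the 48644 gene rows of the table, and 41 passed a filter of a mean of at least 1 RPKM over the 6 libraries (RPKM is a read count scaled by transcript length and library size). RNA with a poly(A) tail was measured in KYSE70 cells, a line established from a squamous carcinoma of the esophagus. The cells stably carried a doxycycline-inducible hairpin (pLKO-Tet-On vector) against either SOX2 or TP63, both transcription factor genes of squamous epithelium. The 4 groups were shSOX2 cells after 4 days of doxycycline at 50 ng/ml (2 libraries), shSOX2 cells at day 0 without doxycycline (1 library), shTP63 cells after the same 4 days (2 libraries), and shTP63 cells at day 0 (1 library). All groups were grown in the same serum-containing medium, and all carried a hairpin vector. No library of doxycycline-treated cells with an untargeted hairpin was analysed here, so the hairpin, the doxycycline and the 4 days of culture cannot be told apart.

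A chromosome is copied once per cell cycle by a machinery that assembles in steps. In G1 the origin recognition complex, CDC6 and CDT1 load the ring-shaped MCM helicase onto DNA, which is called licensing; in S phase CDC45 and the GINS complex turn that ring into the active helicase. Primase and the replicative polymerases then copy the strands, held to DNA by the PCNA clamp, while RPA coats single-stranded DNA, ribonucleotide reductase and thymidylate synthase supply the nucleotides, and CAF-1 places histones on the new DNA. Most of these genes are transcribed late in G1 and in S phase under E2F factors, so their RNA is abundant in dividing cells. In bulk RNA, a smaller share of cells in S phase and less RNA per cell cannot be told apart.

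The deposited values were read as being on a log2(RPKM + 1) scale, and a value on it is called a level below. In each pair of day 4 values, the library numbered 2 in the sample titles comes first and the library numbered 1 second. The uninduced shTP63 library listed 16167 genes above 0, against 21530 to 23509 in the other 5, and as the only day 0 library of its line it enters every shTP63 difference. Of 13 marker genes of leukocytes, endothelium, fibroblasts and muscle in the table, CD3E and COL1A2 were at 0 in all 6 libraries. These markers summed to 3.48 and 3.03 RPKM in induced shSOX2 cells against 2.19 at day 0, and to 6.74 and 5.35 RPKM in induced shTP63 cells against 2.65 at day 0, mostly from COL1A1. Their part in the results was not tested. Of the squamous markers, KRT5 was at 8.39 to 11.01, while KRT14 was at 0.66 to 2.70 and KRT17 at 0 to 1.83. The 12 squamous markers summed to 1030 and 1270 RPKM in induced shSOX2 cells against 2020 at day 0, and to 2640 and 1240 RPKM in induced shTP63 cells against 3110 at day 0. Of 11 tested, 5 were lower and 4 higher in both day 4 libraries of shSOX2 cells (40.2% and 33.3% of all genes). In shTP63 cells 4 were lower and 4 higher (38.5% and 37.9% of all genes). KRT6A was at 7.13 and 6.64 in induced shSOX2 cells against 9.61, and at 7.74 and 6.58 in induced shTP63 cells against 10.31. CDH1, E-cadherin, was at 3.81 and 3.62 in induced shSOX2 cells against 3.50, and at 3.86 and 5.13 in induced shTP63 cells against 1.87. The part of these markers in the results was not tested either. SOX2 was at 5.65 and 4.67 in induced shSOX2 cells, against 6.25 at day 0. TP63 was at 2.26 and 2.11 in induced shTP63 cells, against 3.99 at day 0. The log2 difference of the targeted gene was -1.10 ± 0.45 for SOX2 and -1.81 ± 0.32 for TP63, and neither passed (limma adjusted p = 0.469 and 0.131). Whether each library had its own culture is not stated in the labels, so the p-values speak of the spread among these libraries only, which can be technical. The numbers 1 and 2 were read as replicates, but they may mark separate hairpins. Were they hairpins, the spread behind every standard error and p-value would include a difference between hairpins. Each day 4 library numbered 1 would then be compared with day 0 cells of another hairpin, and a line as named here would hold both.

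After 4 days of doxycycline the replication genes were lower in both lines, from licensing factors to nucleotide synthesis. In shSOX2 cells 40 of the 41 tested members were lower in both day 4 libraries than at day 0, where 40.2% of all 10536 genes tested were. The median log2 difference of the members was -0.70, and that of all genes was -0.05. In shTP63 cells 38 of 41 were lower in both day 4 libraries, against a background of 38.5%, with a median of -1.19 for the members and 0.00 for all genes. The values were read as quantile-normalized, which makes the distributions of the libraries alike. The small medians over all genes therefore do not show that RNA as a whole was unchanged. A pseudocount of 5 in place of 1 gave members' medians of -0.630 in shTP63 cells and -0.472 in shSOX2 cells. No tested member was higher in both day 4 libraries of shSOX2 cells (background 33.3%), and 1 was in shTP63 cells (37.9%). There were 37 members lower in both day 4 libraries of both lines, against 2427 of all 10536 genes, and the 4 others were MCM6, RFC4, RPA1 and RPA3. A separate count of members at least 2-fold lower in both day 4 libraries gave 3 in shSOX2 cells (0.987% of all genes) and 18 in shTP63 cells (2.82%).

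No single member passed the test over all genes in either line. limma called 0 of 41 members in shSOX2 cells, where it called 0% of all genes, and the members' adjusted p ran from 0.349 to 0.823. It called 0 of 41 in shTP63 cells, where it called 0.019% of all genes, with adjusted p from 0.131 to 0.78. At an unadjusted p under 0.05, 12 members were lower in shSOX2 cells (background 4.26% lower) and 31 in shTP63 cells (background 7.24% lower), and 0 were higher in either (background 6.12% higher in shSOX2 cells and 7.33% in shTP63 cells). Both day 0 libraries were also joined as 1 control group of n = 2. With it, 16 of 41 members were called lower in shTP63 cells (1.21% of all genes), and 0 were called in shSOX2 cells. These 16 were CDC45, CDC6, MCM5, MCM7, CHAF1A, GINS4, MCM10, CLSPN, LIG1, CDT1, MCM4, RRM2, MCM8, GINS2, MCM3 and RFC2. That control mixes the lines, whose uninduced libraries differed by -0.93 (RFC5) to 0.70 (PCNA) among tested members, shTP63 minus shSOX2.

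**Figure D1:**
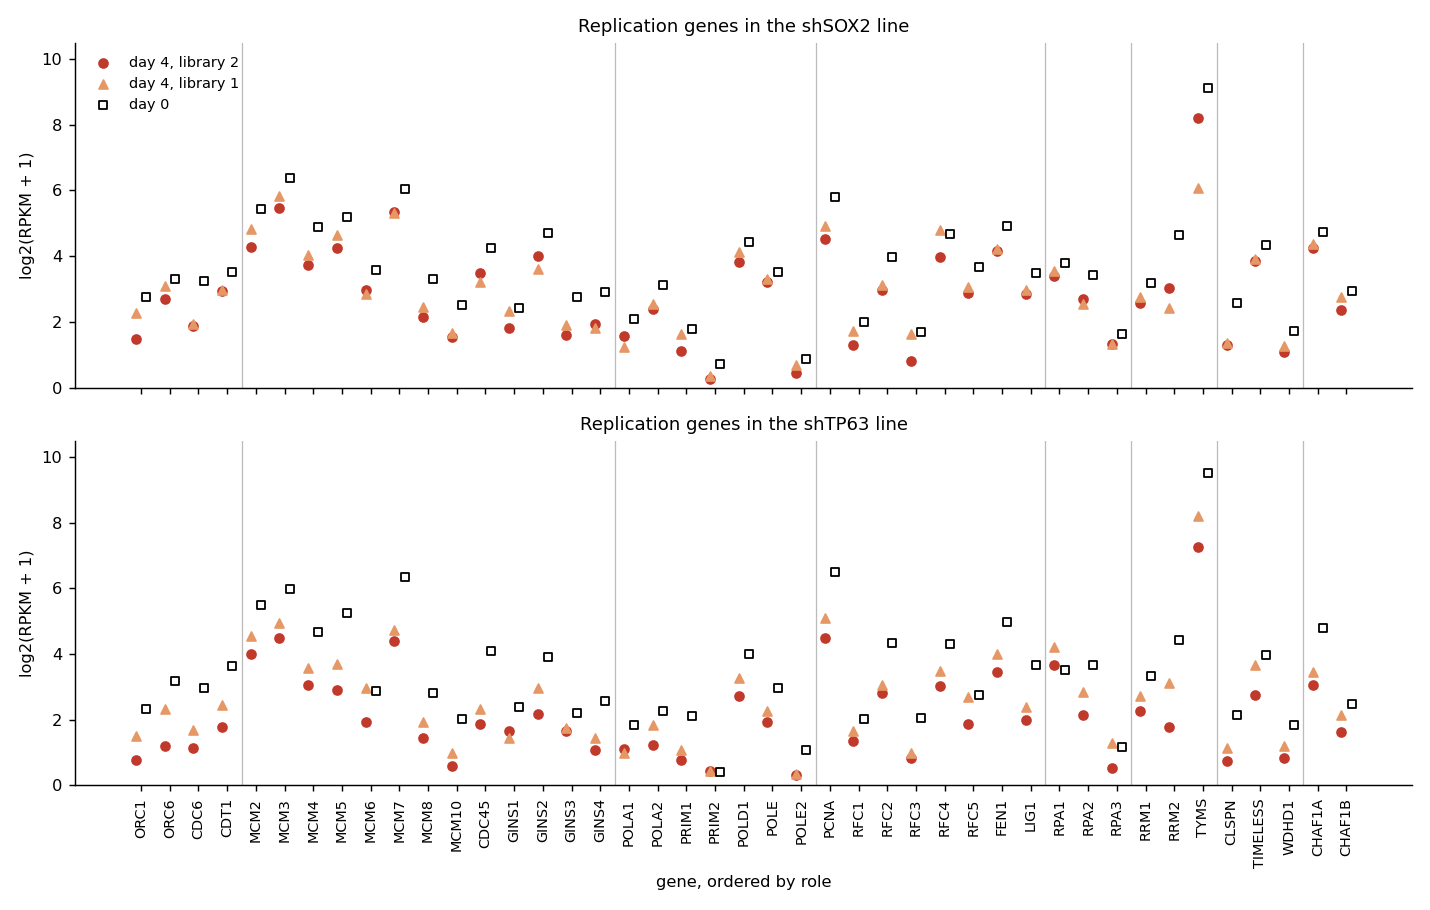
Level of each of the 43 genes, as log2(RPKM + 1), in the shSOX2 line (upper panel) and the shTP63 line (lower panel), with genes ordered by role and grey lines between roles. Filled circles and triangles are the single day 4 libraries and open squares the single day 0 library; nearly every square lies above its filled symbols, and RPA1 in the shTP63 line is the tested gene with both filled symbols above the square.

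The members differed widely in level per length. TYMS, thymidylate synthase, averaged 350.0 RPKM over the 6 libraries, and the next were MCM3 at 49.0, MCM7 at 44.8 and PCNA at 41.6 RPKM. MCM10, CLSPN, POLA1, PRIM1, RFC3, WDHD1 and RPA3 lay between 1.37 and 2.23 RPKM. PRIM2 at 0.361 and POLE2 at 0.573 RPKM fell under the filter, and RPA3 at 1.37 and WDHD1 at 1.58 RPKM were the nearest above it. Low genes pass such a filter more easily when 1 group is high, and a log2(RPKM + 1) difference understates the difference of low genes. Summed over the 43 genes, the level was 660 and 495 RPKM in induced shSOX2 cells, against 1240 RPKM at day 0, and 349 and 599 RPKM in induced shTP63 cells, against 1390 RPKM at day 0. TYMS alone made up a large part of these sums, except in the shSOX2 day 4 library numbered 1. It was at 295 and 66.7 RPKM in induced shSOX2 cells against 555 at day 0. In induced shTP63 cells TYMS was at 153 and 295 RPKM against 733 at day 0.

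The promoters of the members were searched for the motif of E2F, the factor family that drives S-phase genes. RefSeq windows of 300 bases on GRCh38.p14 (250 before the start site and 50 after it) matched 38 of the 43 members by symbol. The strings searched on both strands were TTTCCCGC, TTTGGCGC, TTTCGCGC and TTTGCCGC, of which TTTGGCGC and TTTCGCGC can overlap each other on opposite strands. At least 1 window of 19 of the 38 genes (50.0%) held a string, against 3.99% of the 27305 genes in the promoter table and 6.98% of the 6851 tested genes found in it. The CCAAT box, CCAAT, was in 23 of 38 (60.5%, against 39.7% of all genes and 44.3% of tested genes), the cell cycle homology region, TTTGAA, in 1 (2.63%, against 18.2% and 12.9%), and the SOX core, CATTGT, in 3 (7.89%, against 13.0% and 8.63%). The 18 tested members with an E2F string had a median log2 difference of -1.23 in shTP63 cells and -0.72 in shSOX2 cells. The 18 without one had -1.13 and -0.50 in the same order of lines. Whether E2F had a part in these differences was not tested. A string is a match of letters and not a shown binding site.

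**Figure D2:**
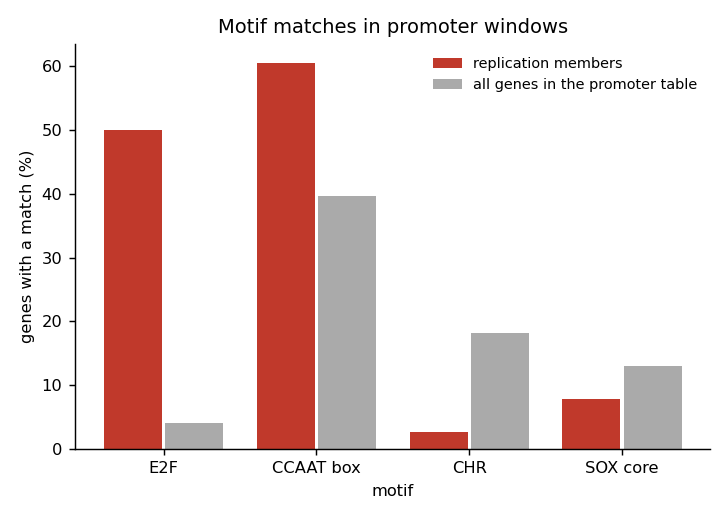
Share of genes, in percent, with at least 1 motif match in a promoter window, for the 38 replication genes with a window (red) and for all 27305 genes in the promoter table (grey). E2F strings were in 50.0% of the replication genes and 3.99% of all genes.

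The windows of 7 members are shown, in lower case with E2F strings in capitals, because they hold differing numbers of matches and come from genes with large, small and opposite differences among those described next. They stand for the helicase, licensing, clamp, nucleotide supply and RPA genes only. MCM6 had the most matches of the windows shown, with 4 matches at 2 places where strings on opposite strands overlap. Its difference in shTP63 cells was the smallest of the helicase genes, at -0.97 and 0.09 in the libraries numbered 2 and 1. MCM3, CDC6, PCNA and TYMS had 1 or 2 matches and were lower in every day 4 library. RRM2, among the largest differences in both lines, and RPA1, higher in both induced shTP63 libraries, had no match in any window. A link between matches and differences was not tested.
MCM6, chr2:135876394-135876693, minus strand: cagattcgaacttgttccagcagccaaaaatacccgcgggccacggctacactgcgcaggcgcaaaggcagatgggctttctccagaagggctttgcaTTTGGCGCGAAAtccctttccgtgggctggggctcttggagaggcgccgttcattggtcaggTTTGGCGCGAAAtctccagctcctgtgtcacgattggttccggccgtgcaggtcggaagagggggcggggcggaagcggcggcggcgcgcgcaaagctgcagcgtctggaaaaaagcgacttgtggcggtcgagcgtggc
MCM3, chr6:52284693-52284992, minus strand: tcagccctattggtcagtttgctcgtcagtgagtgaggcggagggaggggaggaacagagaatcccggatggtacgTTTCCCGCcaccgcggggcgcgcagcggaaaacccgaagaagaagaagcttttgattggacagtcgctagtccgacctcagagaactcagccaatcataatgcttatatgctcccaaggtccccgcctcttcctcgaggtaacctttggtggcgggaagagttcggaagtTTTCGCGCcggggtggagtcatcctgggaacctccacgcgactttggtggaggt
CDC6, chr17:40287629-40287928, plus strand: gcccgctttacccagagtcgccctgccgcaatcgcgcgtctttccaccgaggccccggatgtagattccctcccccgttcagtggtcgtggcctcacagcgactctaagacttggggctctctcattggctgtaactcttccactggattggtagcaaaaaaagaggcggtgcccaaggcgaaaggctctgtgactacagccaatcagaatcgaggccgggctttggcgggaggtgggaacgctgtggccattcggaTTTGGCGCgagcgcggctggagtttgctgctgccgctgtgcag
PCNA, chr20:5126573-5126872, minus strand: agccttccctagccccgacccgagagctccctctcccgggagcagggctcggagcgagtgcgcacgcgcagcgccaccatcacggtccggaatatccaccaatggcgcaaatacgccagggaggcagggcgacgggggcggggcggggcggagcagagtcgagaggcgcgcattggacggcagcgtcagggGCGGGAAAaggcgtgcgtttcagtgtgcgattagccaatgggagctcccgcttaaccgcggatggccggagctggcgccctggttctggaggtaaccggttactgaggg
TYMS, chr18:657403-657702, plus strand: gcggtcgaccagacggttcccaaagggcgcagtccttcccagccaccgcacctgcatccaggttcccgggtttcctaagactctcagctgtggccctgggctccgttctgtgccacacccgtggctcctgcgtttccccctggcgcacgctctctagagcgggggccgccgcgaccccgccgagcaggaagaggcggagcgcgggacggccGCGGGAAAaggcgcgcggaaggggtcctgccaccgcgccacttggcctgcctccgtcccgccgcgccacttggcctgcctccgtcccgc
RRM2, chr2:10122489-10122788, plus strand: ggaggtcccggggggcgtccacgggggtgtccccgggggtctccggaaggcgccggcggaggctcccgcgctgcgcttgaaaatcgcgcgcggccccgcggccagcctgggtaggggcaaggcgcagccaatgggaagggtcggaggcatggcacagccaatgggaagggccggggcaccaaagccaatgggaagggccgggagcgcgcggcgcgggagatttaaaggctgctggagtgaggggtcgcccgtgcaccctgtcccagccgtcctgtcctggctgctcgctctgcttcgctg
RPA1, chr17:1829755-1830054, plus strand: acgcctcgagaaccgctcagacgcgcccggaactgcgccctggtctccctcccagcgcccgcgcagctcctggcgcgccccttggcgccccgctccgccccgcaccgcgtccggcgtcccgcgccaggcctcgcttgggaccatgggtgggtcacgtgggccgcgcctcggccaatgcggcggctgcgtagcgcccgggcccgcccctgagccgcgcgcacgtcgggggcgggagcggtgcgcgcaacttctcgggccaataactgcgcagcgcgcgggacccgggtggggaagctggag

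All 4 licensing genes were lower in both day 4 libraries of both lines. CDC6, the ATPase that helps load the MCM ring, was at 1.86 and 1.93 in induced shSOX2 cells, against 3.25 at day 0, a log2 difference of -1.36 ± 0.34 (SE; limma adjusted p = 0.349, with 2 day 4 libraries and 1 day 0 library). In induced shTP63 cells CDC6 was at 1.14 and 1.68, against 2.98 at day 0, a difference of -1.58 ± 0.34 (limma adjusted p = 0.137). All 4 induced libraries lay below both uninduced ones, and CDC6 is 1 of the members called in shTP63 cells with both day 0 libraries as control. CDT1, the partner of CDC6 in loading, was at 2.95 and 2.97 in induced shSOX2 cells against 3.52 at day 0, and at 1.79 and 2.45 in induced shTP63 cells against 3.63 at day 0. The log2 difference was -0.56 ± 0.37 in shSOX2 cells and -1.51 ± 0.37 in shTP63 cells (limma adjusted p = 0.612 and 0.164). ORC6, a subunit of the origin recognition complex, was at 2.70 and 3.08 in induced shSOX2 cells against 3.31 at day 0, and at 1.21 and 2.34 in induced shTP63 cells against 3.19. The induced shTP63 libraries were far apart for ORC6, although both were below every other library. ORC1, an ATPase subunit of that complex, differed by -0.88 ± 0.44 in shSOX2 cells and -1.19 ± 0.44 in shTP63 cells.

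The 13 helicase genes were lower in both day 4 libraries throughout, with the exception of MCM6 in shTP63 cells. The 6 subunits MCM2 to MCM7 form 1 ring, and in shSOX2 cells their log2 differences lay close together, from -1.01 for MCM4 to -0.67 for MCM6, with a median of -0.72. In shTP63 cells they spread from -1.95 for MCM5 to -0.44 for MCM6, with a median of -1.30. MCM5 was at 2.90 and 3.70 in induced shTP63 cells against 5.25 at day 0, and at 4.24 and 4.65 in induced shSOX2 cells against 5.18 at day 0. MCM7 was at 4.40 and 4.72 in induced shTP63 cells against 6.34 at day 0, and at 5.34 and 5.32 in induced shSOX2 cells against 6.04 at day 0. For both genes the induced shTP63 libraries lay below the induced shSOX2 libraries without overlap, as did 26.6% of all genes tested. Neither MCM5 nor MCM7 passed between the induced lines (limma adjusted p = 0.137 and 0.173). Their uninduced levels differed by 0.07 and 0.29, shTP63 minus shSOX2. MCM6 was at 1.92 and 2.98 in induced shTP63 cells against 2.89 at day 0, so 1 induced library was slightly above day 0. In shSOX2 cells MCM6 was at 2.98 and 2.84, against 3.59 at day 0. Its day 0 log2 level differed by -0.69 between the lines, shTP63 minus shSOX2.

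The other 3 ring subunits were read in the same way. MCM2 was at 4.27 and 4.84 in induced shSOX2 cells against 5.44, and at 3.99 and 4.54 in induced shTP63 cells against 5.50. MCM3, the most abundant subunit per length, was at 5.48 and 5.82 in induced shSOX2 cells against 6.37, and at 4.50 and 4.95 in induced shTP63 cells against 5.97. MCM4 was at 3.72 and 4.05 in induced shSOX2 cells against 4.89, and at 3.05 and 3.59 in induced shTP63 cells against 4.66. For all 3 genes, every induced library was below the day 0 library of its line. The order of the subunits by mean RPKM was MCM3, MCM7, MCM2, MCM5, MCM4 and MCM6.

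CDC45, which joins the ring to make the active helicase, had the largest difference of all members in shTP63 cells. It was at 1.86 and 2.32 in induced shTP63 cells against 4.08 at day 0, a log2 difference of -1.99 ± 0.36 (limma adjusted p = 0.131, 95% interval -2.82 to -1.15). In induced shSOX2 cells it was at 3.49 and 3.20 against 4.25 at day 0, a difference of -0.90 ± 0.36 (limma adjusted p = 0.455). All 4 induced libraries were below both uninduced ones. The GINS subunits, the other helicase activators, had differences of -1.04 (GINS4) to -0.35 (GINS1) in shSOX2 cells and -1.34 (GINS2) to -0.52 (GINS3) in shTP63 cells, each lower in both day 4 libraries. GINS3 was 1 of the few members with the larger difference in shSOX2 cells. MCM10, which helps start the forks, differed by -0.91 ± 0.31 in shSOX2 cells and -1.23 ± 0.31 in shTP63 cells, and MCM8, a helicase paralog known from recombination, by -1.02 ± 0.35 and -1.13 ± 0.35 in the same order.

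The 5 tested polymerase and primase genes were lower in every induced library, with a median of -0.47 in shSOX2 cells and -0.88 in shTP63 cells. PRIM1, the catalytic primase subunit, was at 1.10 and 1.64 in induced shSOX2 cells against 1.77 at day 0, and at 0.78 and 1.07 in induced shTP63 cells against 2.11. POLD1, the catalytic subunit of polymerase delta, was at 3.81 and 4.12 in induced shSOX2 cells against 4.44, and at 2.73 and 3.28 in induced shTP63 cells against 3.99. POLE, the catalytic subunit of polymerase epsilon, was at 3.22 and 3.31 in induced shSOX2 cells against 3.53, and at 1.92 and 2.27 in induced shTP63 cells against 2.97. POLE thus stood close to day 0 with the SOX2 hairpin, at -0.26 ± 0.33 (limma adjusted p = 0.798, 95% interval -1.03 to 0.51), and lower with the TP63 hairpin, at -0.88 ± 0.33 (limma adjusted p = 0.283). Its uninduced log2 level itself differed by -0.56, shTP63 minus shSOX2. The polymerase alpha subunits POLA1 and POLA2 differed by -0.68 and -0.65 in shSOX2 cells and by -0.79 and -0.73 in shTP63 cells. Below the filter, POLE2 was at 0.44 and 0.68 in induced shSOX2 cells against 0.88, and at 0.33 and 0.36 in induced shTP63 cells against 1.07. PRIM2 was at 0.26 and 0.34 in induced shSOX2 cells against 0.72, and at 0.44 and 0.44 in induced shTP63 cells against 0.42.

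PCNA, the sliding clamp, was at 4.52 and 4.92 in induced shSOX2 cells against 5.79 at day 0, a log2 difference of -1.07 ± 0.41 (limma adjusted p = 0.444). In induced shTP63 cells it was at 4.48 and 5.11 against 6.49 at day 0, a difference of -1.69 ± 0.41 (limma adjusted p = 0.158). The mean day 4 RPKM was 47.2% of day 0 in shSOX2 cells and 31.0% in shTP63 cells. The induced lines overlapped for PCNA, and it was the uninduced shTP63 library that stood highest. LIG1, the ligase that joins Okazaki fragments, was at 2.86 and 2.96 in induced shSOX2 cells against 3.49, and at 1.99 and 2.39 in induced shTP63 cells against 3.68. FEN1, the flap nuclease of the same step, differed by -0.74 ± 0.37 in shSOX2 cells and -1.23 ± 0.37 in shTP63 cells. Both were lower in every induced library.

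The clamp loader subunits RFC1 to RFC5 were less uniform. RFC1, the large subunit, was at 1.29 and 1.72 in induced shSOX2 cells against 1.99, and at 1.34 and 1.67 in induced shTP63 cells against 2.02, nearly the same in both lines. RFC2 and RFC3 differed by -0.92 and -0.47 in shSOX2 cells and by -1.41 and -1.15 in shTP63 cells. RFC4 was at 3.98 and 4.79 in induced shSOX2 cells against 4.69, the only member with an induced shSOX2 library above day 0, and at 3.02 and 3.48 in induced shTP63 cells against 4.32. RFC5 was at 1.86 and 2.70 in induced shTP63 cells against 2.75, so 1 of these libraries was close to day 0, and differed by -0.70 ± 0.41 in shSOX2 cells. In the GRCh38 annotation RFC4 shares exon bases with EIF4A2 on the opposite strand, which was at 6.03 and 6.71 in induced shSOX2 cells against 6.30. In that line EIF4A2 and RFC4 both had the higher value in the library numbered 1. In induced shTP63 cells EIF4A2 was at 6.74 and 6.54 against 5.64, thus higher at day 4 where RFC4 was lower. Without strand, reads in the shared exon bases cannot be told apart.

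The RPA genes had the medians nearest 0 of the roles, -0.32 in shSOX2 cells and -0.27 in shTP63 cells. RPA1, its large subunit, was at 3.68 and 4.23 in induced shTP63 cells against 3.51 at day 0, a log2 difference of 0.45 ± 0.37 (limma adjusted p = 0.622, 95% interval -0.42 to 1.31). In induced shSOX2 cells RPA1 was at 3.40 and 3.56 against 3.80, a difference of -0.32 ± 0.37 (limma adjusted p = 0.777). It was the only tested member higher in both day 4 libraries of a line, and neither difference passed. RPA2 was at 2.14 and 2.84 in induced shTP63 cells against 3.67, and at 2.69 and 2.55 in induced shSOX2 cells against 3.43, a pattern like that of most members. RPA3 was at 0.53 and 1.29 in induced shTP63 cells against 1.18, with 1 library on each side of day 0, and at 1.33 and 1.32 in induced shSOX2 cells against 1.62.

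The largest differences of either line included those of nucleotide supply. RRM2, the small subunit of ribonucleotide reductase that is made in S phase, was at 3.02 and 2.41 in induced shSOX2 cells against 4.64, a log2 difference of -1.93 ± 0.57 (limma adjusted p = 0.394). It was at 1.78 and 3.13 in induced shTP63 cells against 4.43, a difference of -1.98 ± 0.57 (limma adjusted p = 0.195). Without the shTP63 day 4 library numbered 1, which leaves 1 library against 1 in that line, the RRM2 difference was -2.66. RRM1, the large subunit, was at 2.57 and 2.76 in induced shSOX2 cells against 3.19, and at 2.27 and 2.72 in induced shTP63 cells against 3.34. The subunits of 1 enzyme thus differed in size of difference, RRM2 having 23.7% and 24.8% of its day 0 RPKM at day 4 in shSOX2 and shTP63 cells, and RRM1 66.2% and 51.5%.

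TYMS was at 8.21 and 6.08 in induced shSOX2 cells against 9.12, a log2 difference of -1.97 ± 0.79 (limma adjusted p = 0.46). It was at 7.27 and 8.21 in induced shTP63 cells against 9.52, a difference of -1.78 ± 0.79 (limma adjusted p = 0.355). The size of the shSOX2 difference rests on the library numbered 1, without which it was -0.91. ENOSF1, whose exons overlap those of TYMS on the opposite strand in the GRCh38 annotation, was at 5.09 and 3.23 in induced shSOX2 cells against 5.31, and at 4.06 and 3.82 in induced shTP63 cells against 4.88. It was therefore low in the same shSOX2 library as TYMS, and since no strand-specific step is stated, reads of the overlap may count for either gene.

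At the fork, CLSPN, the checkpoint mediator that travels with it, was at 1.30 and 1.37 in induced shSOX2 cells against 2.57, a log2 difference of -1.23 ± 0.31 (limma adjusted p = 0.349). It was at 0.74 and 1.15 in induced shTP63 cells against 2.16, a difference of -1.22 ± 0.31 (limma adjusted p = 0.167). TIMELESS, which protects the fork, was at 3.86 and 3.92 in induced shSOX2 cells against 4.33, and at 2.75 and 3.66 in induced shTP63 cells against 3.97. WDHD1, which ties polymerase alpha to the helicase, was at 1.07 and 1.28 in induced shSOX2 cells against 1.72, and at 0.83 and 1.20 in induced shTP63 cells against 1.85. All 3 were lower in each induced library, CLSPN by the most. The subunits of CAF-1, the histone chaperone of new DNA, were unlike in size in shTP63 cells. CHAF1A was at 3.05 and 3.46 in induced shTP63 cells against 4.80, a difference of -1.54 ± 0.36 (limma adjusted p = 0.147), and at 4.25 and 4.38 in induced shSOX2 cells against 4.75. CHAF1B was at 1.63 and 2.16 in induced shTP63 cells against 2.47, and at 2.37 and 2.77 in induced shSOX2 cells against 2.93.

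**Figure D3:**
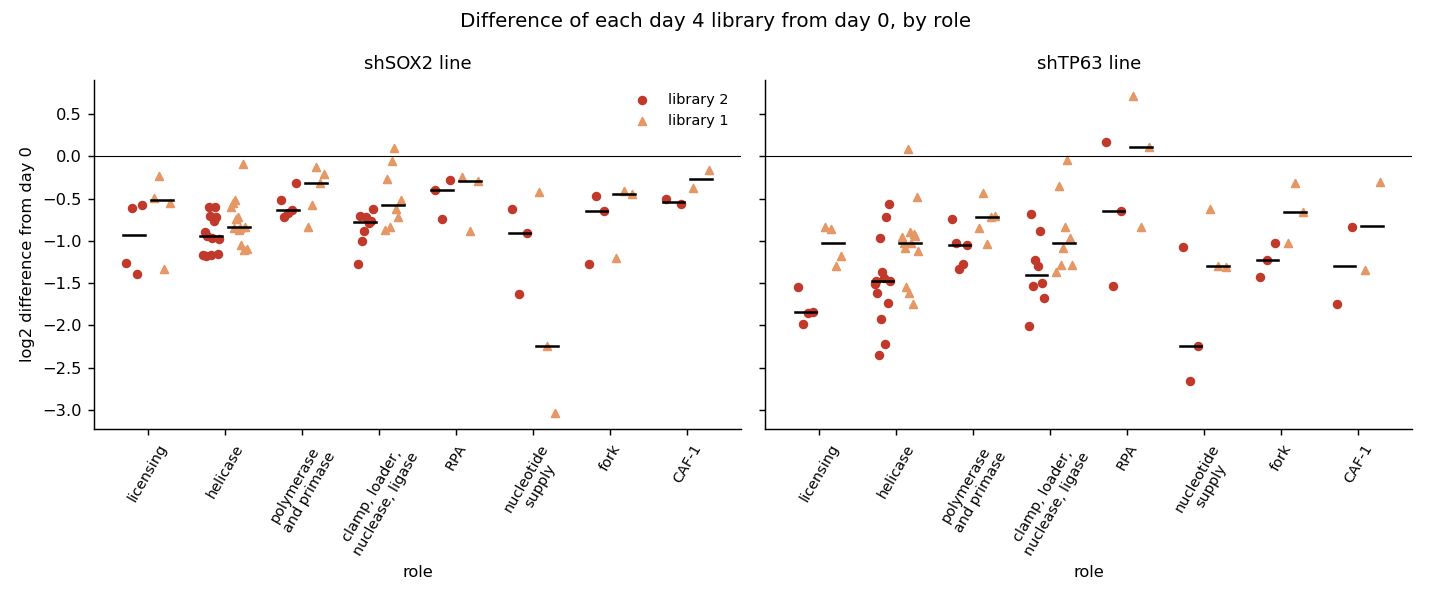
Log2 difference from day 0 of each tested member in the single day 4 libraries, by role, in the shSOX2 line (left) and the shTP63 line (right); circles are the library numbered 2, triangles the library numbered 1, and black bars the median of a role in a library. In the shTP63 line the circles lie lower than the triangles in nearly every role, and RPA is the role nearest 0.

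The day 4 libraries of a line were not alike in depth of the difference. In shTP63 cells 39 of 41 members were lower in the library numbered 2 than in that numbered 1, against 5189 of all 10536 genes, and the members' median difference from day 0 was -1.44 and -0.94 in them. In shSOX2 cells 31 of 41 were lower in the library numbered 2, against 5669 of all genes, with medians of -0.72 and -0.57. The median gap between the paired libraries was 0.53 for the members and 0.28 for all genes in shTP63 cells, and 0.29 and 0.30 in shSOX2 cells. If the numbers in the titles stand for different hairpins, the day 4 libraries numbered 1 have no day 0 library of their own.

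Across the 41 tested members the differences of the lines, which share no library, correlated with a Pearson r of 0.54, and across all tested genes with an r of 0.50. These are descriptions across genes of the same libraries, and genes are not independent replicates.

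**Figure D4:**
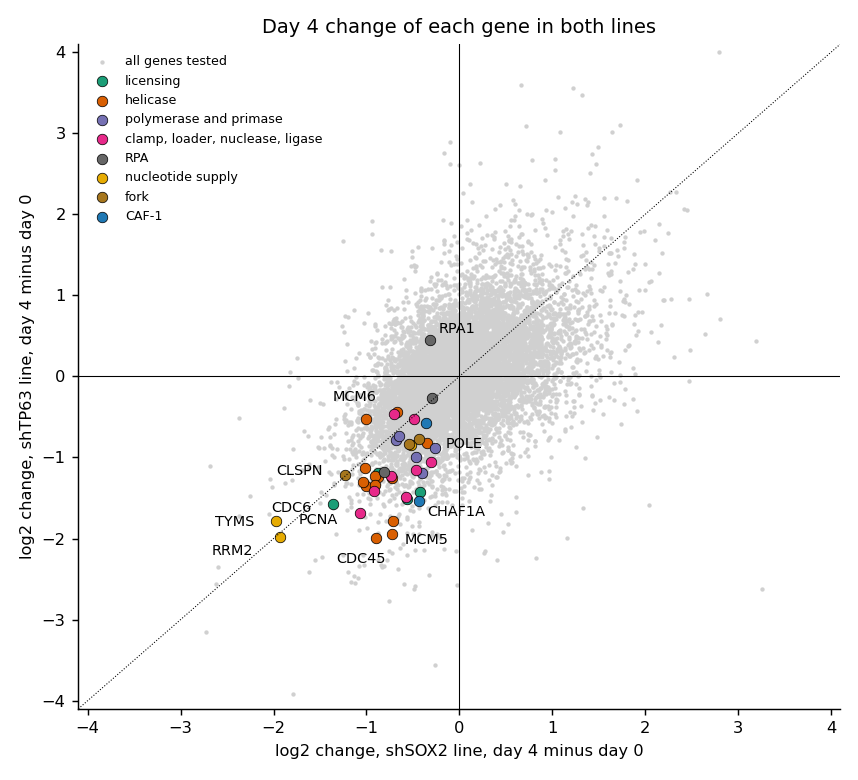
Log2 difference, day 4 minus day 0, of every tested gene in the shSOX2 line (x axis) and the shTP63 line (y axis); grey dots are all 10536 genes, coloured dots the 41 tested replication genes by role, and the dotted line marks equal differences. All coloured dots lie left of 0, and all but RPA1 lie below 0.

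The log2 difference from day 0 was the more negative in shTP63 cells for 34 of 41 members, against 5005 of all 10536 genes, but the difference between the responses did not pass for any member. With the response of shSOX2 cells subtracted from that of shTP63 cells, the members' median was -0.33 and that of all genes 0.03. It was -0.102 without the shTP63 day 4 library numbered 2 and -0.628 without that numbered 1. limma called 0 members and 0 genes (0%), the members' smallest adjusted p was 0.995, and 0 members had an unadjusted p under 0.05, where 4.55% of all genes had. The most negative values were -1.22 ± 0.62 for MCM5, -1.10 ± 0.50 for CHAF1A, -1.08 ± 0.51 for CDC45 and -1.06 ± 0.49 for MCM7. The most positive was 0.77 ± 0.53 for RPA1 (limma adjusted p = 0.995). RRM2, TYMS and CLSPN lay near 0, at -0.05, 0.19 and 0.01, with standard errors of 0.80, 1.12 and 0.44.

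Between the induced lines, 27 of 41 members were lower in both shTP63 libraries than in both shSOX2 libraries, against a background of 26.6%, and 1, RPA1, was higher in both, against 30.5%. The median log2 difference, shTP63 minus shSOX2, was -0.57 for the members and 0.05 for all genes. The members' median was -0.306 without the shTP63 day 4 library numbered 2, -0.841 without that numbered 1, and -0.295 with a pseudocount of 5. limma called 0 members, where 0.759% of all genes were called, and 15 had an unadjusted p under 0.05 on the lower side, against 12.5% of all genes. POLE, at -1.17 ± 0.27, and CDC45, at -1.25 ± 0.29, had the smallest adjusted p among the members (limma adjusted p = 0.0932 for each, n = 2 libraries per line). Both were lower in shTP63 cells without overlap. The uninduced lines also differed for many members, the shTP63 library being the lower for 25 of 41 with a median of -0.23, against 5165 of all 10536 genes with a median of 0.01. With 1 day 0 library per line, this gap was not tested. The induced lines overlapped for 13 members, among them PCNA at 0.08 ± 0.33, RFC1, RRM2 and TYMS.

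Further replication genes outside the 43 were read in the same way. Of 39 tested genes in 3 further lists (origin and firing factors, other polymerase, clamp and assembly genes, and other nucleotide supply), 31 were lower in both day 4 libraries of shSOX2 cells (40.2% of all genes) and 33 in those of shTP63 cells (38.5%). Their median log2 differences were -0.36 and -0.49 in that order, and limma called 0 of them in either line, with 7 lower at an unadjusted p under 0.05 in shSOX2 cells (4.26% of all genes) and 13 in shTP63 cells (7.24%). RNASEH2A, the catalytic subunit of RNase H2, was at 4.13 and 3.86 in induced shSOX2 cells against 5.05, and at 3.11 and 3.94 in induced shTP63 cells against 5.25. The salvage enzyme gene TK1, thymidine kinase, was at 3.34 and 4.21 in induced shTP63 cells against 5.36, and at 4.34 and 4.40 in induced shSOX2 cells against 5.06. RNASEH2A and TK1 resembled the members in direction. Of the 39 genes, 1 was higher in both day 4 libraries of shSOX2 cells (33.3% of all genes). In shTP63 cells 3 were (37.9%), namely POLD4, RRM2B and SAMHD1. POLD4 was at 2.84 and 3.02 in induced shTP63 cells against 2.19, a log2 difference of 0.73. ASF1B, a histone chaperone, was the 1 gene of these lists at least 2-fold lower in both induced shSOX2 libraries, at 3.12 and 3.18 against 4.78. It was picked out after its values were seen. DSCC1, of an alternative clamp loader, differed by -0.86 ± 0.30 in shSOX2 cells and -1.16 ± 0.30 in shTP63 cells, and the CTP synthase gene, listed as CTPS, by -0.69 ± 0.36 and -1.37 ± 0.36. Among origin and firing factors the median was -0.21 in shSOX2 cells and -0.48 in shTP63 cells. RECQL4, a helicase of initiation, differed by -0.11 ± 0.39 in shSOX2 cells and -1.17 ± 0.39 in shTP63 cells, and DBF4B, an activator of the CDC7 kinase, by -0.16 ± 0.33 and -0.83 ± 0.33.

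Polymerases of repair and translesion synthesis had a median of -0.10 over 9 genes in shSOX2 cells and -0.27 in shTP63 cells. Among them POLQ, polymerase theta, differed by -0.99 ± 0.31 in shTP63 cells and -0.18 ± 0.31 in shSOX2 cells. MAD2L2, a partner of polymerase zeta, differed by -0.84 ± 0.35 in shTP63 cells and 0.21 ± 0.35 in shSOX2 cells. The E2F and RB family had medians of -0.39 and -0.32 over 11 genes in shSOX2 and shTP63 cells. In it the repressor gene E2F8 differed by -0.82 ± 0.29 and -0.78 ± 0.29, and TFDP2, an E2F partner, by 0.22 ± 0.31 and 0.91 ± 0.31, in the same order. The 18 tested genes of G2 and M phase had a median of -0.41 in shSOX2 cells and -0.92 in shTP63 cells. Of these, 14 were lower in both day 4 libraries of each line. Their median difference from day 0 in shTP63 cells was -1.54 in the library numbered 2 and -0.23 in that numbered 1. The size of the shTP63 median thus came mostly from 1 library, in which all 18 genes had the lower value. AURKA, a mitotic kinase, differed by -0.66 ± 0.35 in shSOX2 cells and -1.18 ± 0.35 in shTP63 cells, and BUB1B, a spindle checkpoint gene, by -0.38 ± 0.41 and -1.34 ± 0.41. limma called 0 genes of these lists; at an unadjusted p under 0.05, 8 of the 18 G2 and M phase genes were lower in shTP63 cells (7.24% of all genes) and 0 in shSOX2 cells (4.26%). The lists were not tested against each other.

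**Figure D5:**
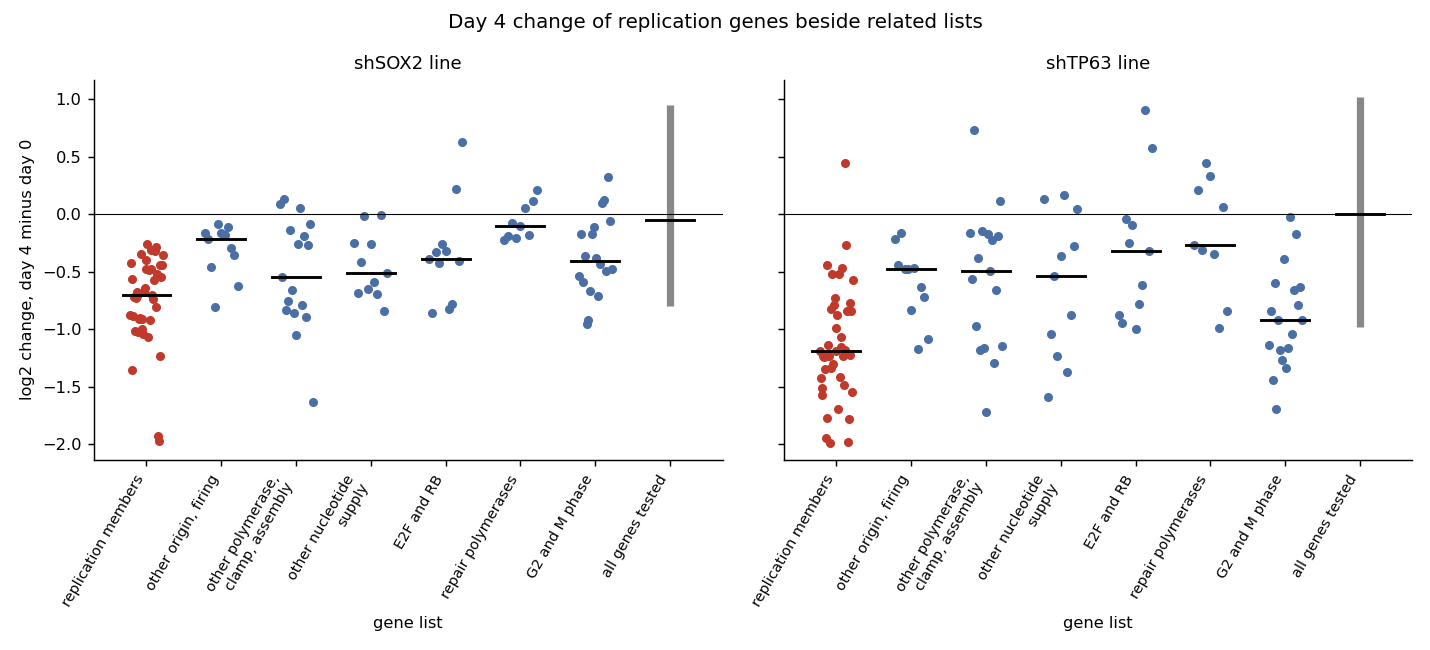
Log2 difference, day 4 minus day 0, of each tested gene (dots) in the replication members (red) and 6 related lists (blue), in the shSOX2 line (left) and the shTP63 line (right); black bars are medians, and the grey bar spans the 5th to 95th percentile of all genes tested. The members have the lowest median in both panels, -0.70 and -1.19, and G2 and M phase genes come next in the shTP63 line at -0.92. That G2 and M phase median was -1.54 in the library numbered 2 and -0.23 in that numbered 1.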

How the data were processed

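Poly(A) RNA of KYSE70 cells was sequenced in 6 libraries. The RNA was fragmented, reverse transcribed with random primers and sequenced on an Illumina HiSeq instrument, per the labels' protocols, with no strand-specific step stated. Reads were placed on hg19, per the submitters' processing notes. No source used here names the aligner, the counter or the annotation. The authors' table names RPKM, but the deposited values were read as log2(RPKM + 1), quantile-normalized between libraries: all 6 share a highest value of 13.36. Base 2 was assumed. Values times GENCODE transcript length add up to 0.151 to 0.156 of all reads with base 2. With a natural log they add up to 1.34 to 1.89, which is more than all reads. Neither sum matches all reads, so the base is not settled, and every RPKM and log2 difference given here depends on it. Depth is unknown, because quantile normalization removes it.

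The deposited values were tested directly with limma 3.58.1 in R 4.3.3: 4 group means on all 6 libraries, a mean-variance trend, genes with a mean of at least 1 RPKM (10536 of 48644), 2 residual and about 5.5 prior degrees of freedom, two-sided p adjusted after Benjamini and Hochberg over all genes tested, and a call at 0.05. Each lone day 0 library was given the variance seen within the pairs at day 4. The script was tested on simulated data. Members, lists, tests and the naming rule were chosen with earlier results of these data known. All 43 members could be named; by the rule, all 6 values are given for the 2 largest and the smallest differences of each role, PCNA and MCM2 to MCM7, and the 2 genes with the smallest p are named from each other list. TICRR and CTPS1 were matched by older symbols. The GRCh38 annotation gave exon overlaps only: 16 members overlap a gene on the opposite strand and 7 have numbered pseudogenes (FEN1, PCNA, RFC3, RFC5, RPA2, RRM2 and TYMS), so their values are less certain. Replicate numbers came from the titles, where they may instead mark separate hairpins. Alternatives were other pseudocounts, filters, scaling, controls, libraries and variance models.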

Additional observations from a re-analysis of the deposited data

How the results depend on the processing

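In shSOX2 cells every member tested kept a negative log2 difference under all alternatives but 3. The exceptions were both day 0 libraries as 1 control (POLE at 0.02), the day 0 library of the other line as control (MCM6 0.02, POLA2 0.21, POLE 0.29, RFC4 0.07, RFC5 0.22, RPA3 0.15 and CHAF1B 0.10) and leaving out a day 4 library (RFC4 between -0.72 and 0.10). Other filters, no variance trend and fits without libraries of the other line leave each difference as it was. Those alternatives could not change a sign, so the signs kept under them are no added support. In shTP63 cells leaving out 1 day 4 library moved MCM6 between -0.97 and 0.09 and RPA3 between -0.65 and 0.11. PCNA between the induced lines ran from -0.24 to 0.39. The cause was not tested.

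The members' median in shSOX2 cells was -0.472 with a pseudocount of 5, -0.528 with the other line's day 0 library, and -0.719 to -0.571 leaving out 1 library. In shTP63 cells it was -0.630 with a pseudocount of 5. Keeping genes with a mean RPKM of at least 5 left 25 members, of which 24 and 23 were lower in both day 4 libraries of shSOX2 and shTP63 cells. Over all genes, limma called in shSOX2 cells 1 with a pseudocount of 5, 11 with the libraries of that comparison alone, 2 with both day 0 libraries, 4 with the other line's and 0 to 11 leaving out 1 library. In shTP63 cells it called 5 with a pseudocount of 0.1, 154 without a filter, 1 at 5 RPKM, 0 with that comparison alone, 291 with both day 0 libraries (16 members), 49 with the other line's, and 0 to 80 leaving out 1 library (0 to 1 members, RRM2). For the difference of responses it called 0 to 5 leaving out 1 library. Between the induced lines it called 46 and 30 with pseudocounts of 0.1 and 5, 0 without a filter, 44 at 5 RPKM, 1 with both day 0 libraries, and 0 to 324 leaving out 1 library (0 to 1 members, ORC6). Deviations of same-numbered day 4 libraries correlated at -0.074 over all tested genes and -0.345 over the members. With 2 day 4 libraries per line, this cannot show whether the numbers mark a pairing, and the main fit used none. With the replicate block the shSOX2 median was -0.883, and the calls were 0 in shTP63 cells and 18 between the induced lines. Quantile normalization hides depth, so low genes carry an unknown counting error.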
